A study of Mus musculus with 12 samples.

Results

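The enzymes that turn arachidonic acid into leukotrienes and prostaglandins were followed in 12 RNA-seq libraries of cultured mouse hematopoietic stem cells (HSCs). The genes were 10 of the 40481 in the deposited table, namely Alox5, Alox5ap, Lta4h, Ltc4s, Alox12, Alox15, Ptgs1, Ptgs2, Hpgds and Hpgd, each matched by its name to 1 gene identifier. They were chosen by measured values of these libraries, because Alox5 fell with the ETV6-RUNX1 fusion and because Hpgd differed between cell sources. For Alox5 against the fusion and for Hpgd between sources, the values below are therefore a description with no test. ETV6-RUNX1 joins a pair of transcription factor genes and occurs in childhood B-cell leukemia. The 4 groups held 3 libraries each: wild-type (WT) and ETV6-RUNX1 (iE/R in the labels, an inducible fusion) HSCs of adult bone marrow at 8 weeks, and WT and ETV6-RUNX1 HSCs of fetal liver at E14.5 of embryonic life. All 12 cultures, WT included, had received 1 µg/mL doxycycline for 3 days in medium that expands HSCs ex vivo. The promoter and the cells that drive the transgene, the number of animals behind a library and whether replicates came from separate animals or cultures are not given in the sources used here, so p-values measure the spread between these samples, which may be technical.

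Arachidonic acid is freed from membrane lipids and then enters either the lipoxygenase or the cyclooxygenase route. The lipoxygenases add oxygen at a fixed carbon: 5-lipoxygenase (Alox5), helped by its membrane partner FLAP (Alox5ap), makes leukotriene A4, which Lta4h converts to leukotriene B4 and Ltc4s to leukotriene C4, while Alox12 is the 12-lipoxygenase of platelets and Alox15 a 12/15-lipoxygenase. The cyclooxygenases Ptgs1, the constitutive form, and Ptgs2, the inducible form, make prostaglandin H2, which Hpgds turns into prostaglandin D2, and Hpgd inactivates prostaglandins by oxidation. Prostaglandin E2 is known to act on HSCs, and platelets, mast cells and myeloid cells are rich sources of these enzymes.

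Library totals ran from 32.3 to 64.5 M reads, so that 3 reads, taken as the floor of detection, equalled 0.0465 to 0.0928 CPM (the read count scaled by the library total). This floor covers counting error only. All 9 HSC markers examined (among them Kit, Procr, Mecom and Hlf) averaged at least 1 CPM in every group. Runx1 and Etv6, the genes of the fusion, had mean levels of 96.3 and 164 CPM in WT and 170 and 225 CPM in ETV6-RUNX1 bone marrow, and of 121 and 123 CPM in WT and 227 and 178 CPM in ETV6-RUNX1 fetal liver. Xist, expressed from the inactive X of female cells, was 0.175 to 1.27 CPM in bone marrow and 51.7 to 89.3 CPM in fetal liver, so the sex makeup of the libraries and the cell source cannot be told apart. The Y-linked genes Ddx3y (23.5 to 41.5 CPM in WT, 69.1 to 75.2 in ETV6-RUNX1) and Uty (9.75 to 18.7 and 41.5 to 47.0) also differed between the genotypes of fetal liver without overlap, so sex makeup and the fusion cannot be told apart there either. In bulk RNA, fewer cells of a type and less RNA per cell cannot be told apart either.

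The members that changed most were Alox5, Alox12, Ptgs2 and Hpgd, and the 250 bases before their starts are shown to give their sequence context. They come from RefSeq on GRCm38.p6 and run 5′ to 3′ on the strand of the gene, ending at the base before the start. Capitals mark the letters TGTGGT or TGCGGT on either strand (ACCACA or ACCGCA when read along the printed strand), the core that RUNX proteins bind. The motifs do not overlap each other.
Alox5, chr6:116461179-116461428, minus strand: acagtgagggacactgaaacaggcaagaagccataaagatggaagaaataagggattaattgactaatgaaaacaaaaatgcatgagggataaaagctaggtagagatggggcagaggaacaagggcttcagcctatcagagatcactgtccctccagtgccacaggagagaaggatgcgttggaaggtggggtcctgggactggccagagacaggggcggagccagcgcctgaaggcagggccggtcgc
Alox12, chr11:70255371-70255620, minus strand: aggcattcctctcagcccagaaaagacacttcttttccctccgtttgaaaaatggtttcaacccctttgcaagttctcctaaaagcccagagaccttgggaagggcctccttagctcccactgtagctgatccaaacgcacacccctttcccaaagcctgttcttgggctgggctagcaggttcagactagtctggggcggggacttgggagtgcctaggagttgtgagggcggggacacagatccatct
Ptgs2, chr1:150099781-150100030, plus strand: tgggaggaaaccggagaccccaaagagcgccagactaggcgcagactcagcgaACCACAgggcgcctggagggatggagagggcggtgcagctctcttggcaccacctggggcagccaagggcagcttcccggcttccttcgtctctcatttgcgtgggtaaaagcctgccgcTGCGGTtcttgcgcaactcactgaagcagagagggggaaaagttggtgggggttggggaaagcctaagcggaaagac
Hpgd, chr8:56294302-56294551, plus strand: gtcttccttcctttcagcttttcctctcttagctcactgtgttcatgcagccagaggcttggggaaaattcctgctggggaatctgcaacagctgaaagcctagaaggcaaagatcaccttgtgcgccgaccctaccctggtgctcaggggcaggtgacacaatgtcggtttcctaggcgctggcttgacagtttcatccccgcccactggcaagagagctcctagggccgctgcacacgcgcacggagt
Of the 8 members with such a window, 3 held the letters. Ptgs2 had 2 matches, 197 and 77 bases before the start, and Ltc4s and Hpgds had 1 each, at 156 and 250 bases. Among all 32851 RefSeq windows of this length 18.6% held at least 1. The windows of Alox5, Alox12 and Hpgd held none, which says only that these letters are not in these 250 bases.

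All 10 members reached 1 CPM in at least 3 libraries and entered the fit of 14271 genes. Per kilobase of exon and averaged over the 12 libraries, Alox5ap stood highest at 295 CPM per kb, followed by Ptgs1 at 79.4, Alox12 at 69.2, Hpgd at 56.05, Lta4h at 44.8 and Alox5 at 29.03 CPM per kb. Ltc4s (2.30 CPM per kb), Ptgs2 (1.31), Alox15 (0.873) and Hpgds (0.591) were low. The members also varied to very different degrees. The highest and lowest group means differed 292-fold for Alox12, 64.1-fold for Hpgd, 22.0-fold for Ptgs2 and 14.53-fold for Alox5, but 1.56-fold for Alox5ap and 1.81-fold for Lta4h.

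**Figure D1:**
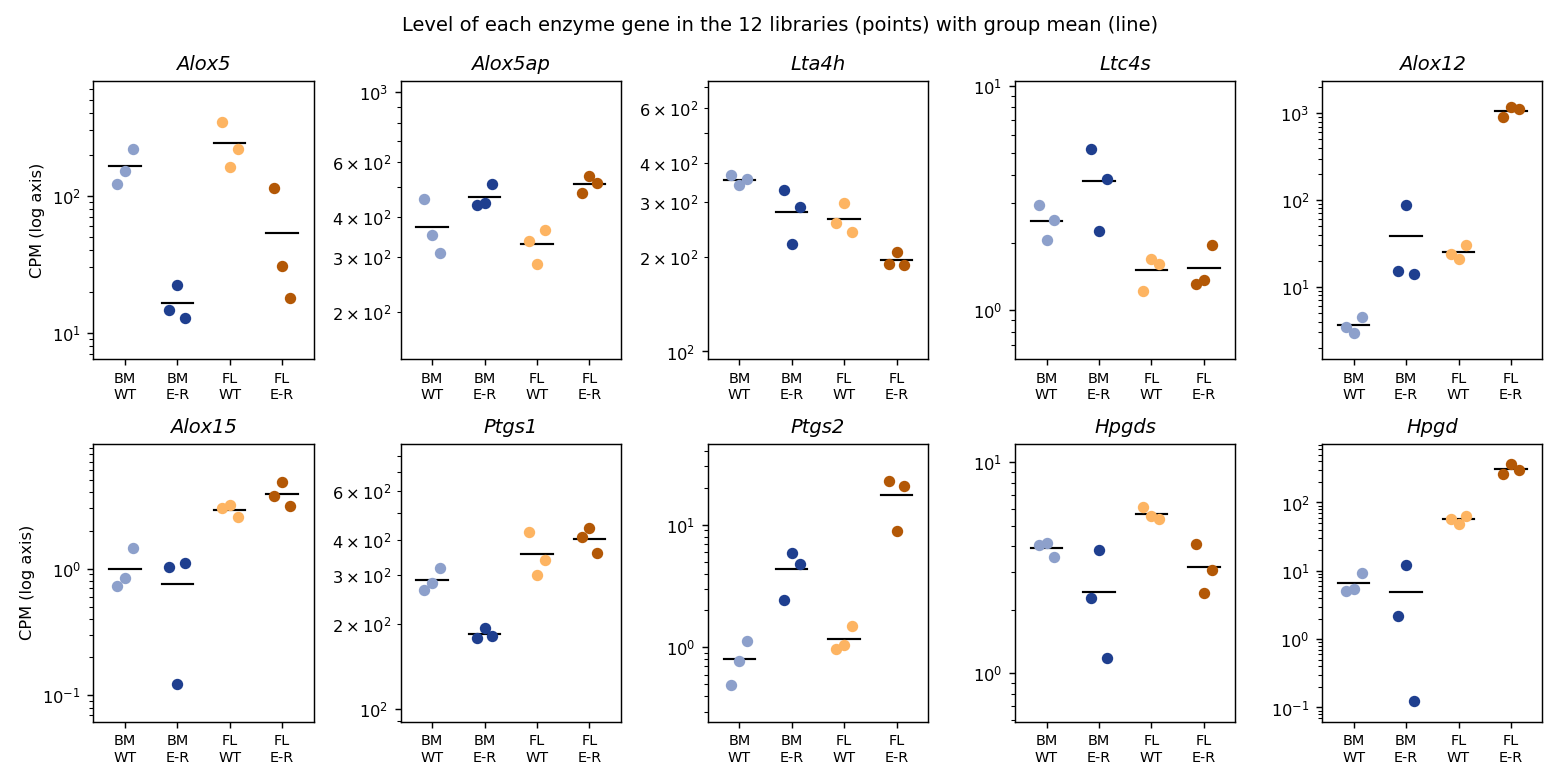
Level of each of the 10 enzyme genes in CPM (vertical log axes, which differ between panels) in the 12 libraries (points) of WT and ETV6-RUNX1 (E-R) bone marrow (BM) and fetal liver (FL), with the group mean as a line. Alox5 is low and Alox12 and Ptgs2 are high in the ETV6-RUNX1 groups of both sources, and Hpgd is between 264 and 362 CPM in ETV6-RUNX1 fetal liver alone.

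The leukotriene route began with Alox5 (ENSMUSG00000025701, chromosome 6, 116410077 to 116461178, GRCm38), the gene on which the choice of members rested. In bone marrow Alox5 was 123, 152 and 220 CPM in WT replicates 1 to 3 and 14.7, 22.3 and 12.9 CPM in ETV6-RUNX1. In fetal liver it was 344, 161 and 220 CPM in WT and 113, 30.6 and 18.1 CPM in ETV6-RUNX1. The groups did not overlap in either source, and replicate 1 of ETV6-RUNX1 fetal liver stood above the other ETV6-RUNX1 libraries. The means were 9.92-fold lower with the fusion in bone marrow and 4.48-fold lower in fetal liver, which on the log2(CPM + 1) scale used for all log2 fold changes here is -3.23 ± 0.49 and -2.50 ± 0.49 (± SE here and for all log2 differences below). Without replicate 1 of ETV6-RUNX1 fetal liver the fetal liver difference was -3.23. The choice had not used the source comparisons of this gene, though they share libraries with the fusion comparisons that it used. Between sources, Alox5 did not pass the test in WT (fetal liver minus bone marrow 0.52 ± 0.49, limma adjusted p 0.539) or with the fusion (1.25 ± 0.49, limma adjusted p 0.0672). The latter was called under 5 of 21 alternative settings and was 0.52 (limma adjusted p 0.307) without replicate 1 of ETV6-RUNX1 fetal liver.

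Alox5ap (ENSMUSG00000060063, chromosome 5, 149264767 to 149288153) did not follow the fall of Alox5. It was 456, 353 and 309 CPM in WT and 439, 446 and 510 CPM in ETV6-RUNX1 bone marrow, and 337, 284 and 364 CPM in WT and 479, 543 and 515 CPM in ETV6-RUNX1 fetal liver. In fetal liver every ETV6-RUNX1 library lay above every WT library, and in bone marrow the ranges overlapped. Alox5ap rose in fetal liver by 0.65 ± 0.15 (limma adjusted p 0.0032), a call kept under all 21 alternatives, while the bone marrow difference was 0.33 ± 0.15 (limma adjusted p 0.13). Per kilobase, the level of Alox5ap was 7.18 ± 3.37 times that of Alox5 in WT bone marrow and 86.2 ± 28.3 times in ETV6-RUNX1 bone marrow (SD, n = 3). In fetal liver the same ratio was 4.24 ± 1.23 in WT and 48.7 ± 35.2 in ETV6-RUNX1, and the ratio carries the fall of Alox5 by which the genes were chosen. An antisense gene, Gm19719, overlaps 189 exon bases of Alox5ap, and whether counting used strand is not given in the sources used here.

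Lta4h (ENSMUSG00000015889, chromosome 10, 93453411 to 93484875), the leukotriene A4 hydrolase, moved little. Its group means were 354 ± 13.3 CPM (SD, n = 3) in WT and 279 ± 54.2 in ETV6-RUNX1 bone marrow, and 266 ± 29.4 and 195 ± 10.3 in fetal liver. No ETV6-RUNX1 library reached the WT range of its own source. Lta4h fell with the fusion in fetal liver by 0.44 ± 0.14 (limma adjusted p 0.0238), a call lost under 4 of 21 alternatives (adjusted p up to 0.105, without WT fetal liver replicate 2). The bone marrow difference of -0.36 ± 0.14 missed the threshold (limma adjusted p 0.0898) and passed it under 4 of 21 alternatives.

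Ltc4s (ENSMUSG00000020377, chromosome 11, 50236461 to 50238616), the leukotriene C4 synthase, was expressed at 1.21 to 5.24 CPM in the 12 libraries. The fusion comparison gave 0.02 ± 0.23 in fetal liver (limma adjusted p 0.964), with the sign changing under 6 of 20 alternatives, and 0.41 ± 0.23 in bone marrow (limma adjusted p 0.237). With the fusion, Ltc4s was lower in fetal liver (1.30, 1.36 and 1.95 CPM) than in bone marrow (5.24, 2.26 and 3.84 CPM), by -0.87 ± 0.23 (limma adjusted p 0.0128). Those groups did not overlap, but the call was lost under 3 of 20 alternatives (adjusted p up to 0.0624, without ETV6-RUNX1 bone marrow replicate 1). The antisense gene Gm26542 covers 268 of the 1014 exon bases of Ltc4s, so its values are uncertain.

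Alox12 (ENSMUSG00000000320, chromosome 11, 70241457 to 70255353) had the widest range of all members. In bone marrow it was 3.49, 2.96 and 4.48 CPM in WT and 15.1, 87.0 and 14.05 CPM in ETV6-RUNX1. In fetal liver it was 23.95, 21.2 and 30.07 CPM in WT and 894, 1170 and 1125 CPM in ETV6-RUNX1. Every ETV6-RUNX1 library lay above every WT library of its source, every fetal liver library lay above every bone marrow library of its genotype, and replicate 2 of ETV6-RUNX1 bone marrow stood apart from the other 2 of its group. Alox12 rose with the fusion 42.4-fold in fetal liver (log2 fold change 5.36 ± 0.47, limma adjusted p 9.56e-07) and 10.6-fold in bone marrow (2.59 ± 0.47, limma adjusted p 0.00259). Both calls held under all 21 alternatives, and without replicate 2 of ETV6-RUNX1 bone marrow the bone marrow difference was 1.76.

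The rise of Alox12 was larger in fetal liver than in bone marrow by 2.76 ± 0.67 (limma adjusted p 0.0203). That call was lost under 5 of 20 alternatives: without the filter on low values (adjusted p 0.0979), with edgeR (0.111) and DESeq2 (0.14) on the recovered reads, and without WT fetal liver replicate 2 (0.0529) or ETV6-RUNX1 bone marrow replicate 1 (0.0503). Without ETV6-RUNX1 bone marrow replicate 2 the difference was 3.597. Between sources, Alox12 was 6.88-fold higher in fetal liver in WT (2.49 ± 0.47, limma adjusted p 0.00316) and 27.5-fold higher with the fusion (5.25 ± 0.47, limma adjusted p 2.34e-06). The latter was 6.09 without ETV6-RUNX1 bone marrow replicate 2.

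Alox15 (ENSMUSG00000018924, chromosome 11, 70344152 to 70352031) was low, from 0.124 CPM (4 reads, ETV6-RUNX1 bone marrow replicate 2) to 4.85 CPM. It did not pass the test for the fusion in fetal liver (0.31 ± 0.25, limma adjusted p 0.333) or in bone marrow (-0.23 ± 0.25, limma adjusted p 0.553; 0.07 without replicate 2 of ETV6-RUNX1 bone marrow). All 6 fetal liver libraries lay above all 6 bone marrow libraries, at 2.56 to 4.85 against 0.124 to 1.44 CPM. The source difference was 0.98 ± 0.25 in WT (limma adjusted p 0.0203, lost under 6 of 20 alternatives, adjusted p up to 0.0923) and 1.52 ± 0.25 with the fusion (limma adjusted p 0.000455, kept under all 20).

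The makeup of the lipoxygenase transcripts differed between genotypes. Per kilobase of exon, Alox5 made up 96.8 ± 0.461% of the summed Alox5, Alox12 and Alox15 level in WT bone marrow and 88.1 ± 3.51% in WT fetal liver (SD, n = 3). With the fusion, Alox12 made up 48.0, 79.6 and 48.9% in bone marrow, where Alox5 made up 46.6, 20.3 and 44.6%, and 88.3, 96.8 and 98.0% in fetal liver, where Alox5 made up 11.1, 2.52 and 1.56%. Alox12 was thus far above Alox5 in ETV6-RUNX1 fetal liver and in replicate 2 of ETV6-RUNX1 bone marrow, nearly level with it in the other ETV6-RUNX1 bone marrow libraries, and far below it in every WT library. The summed level was 41.5 ± 12.5 CPM per kb in WT and 13.8 ± 11.2 in ETV6-RUNX1 bone marrow, and 66.1 ± 22.8 in WT and 275 ± 24.5 in ETV6-RUNX1 fetal liver. These shares contain the Alox5 values that chose the members and were not tested.

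**Figure D2:**
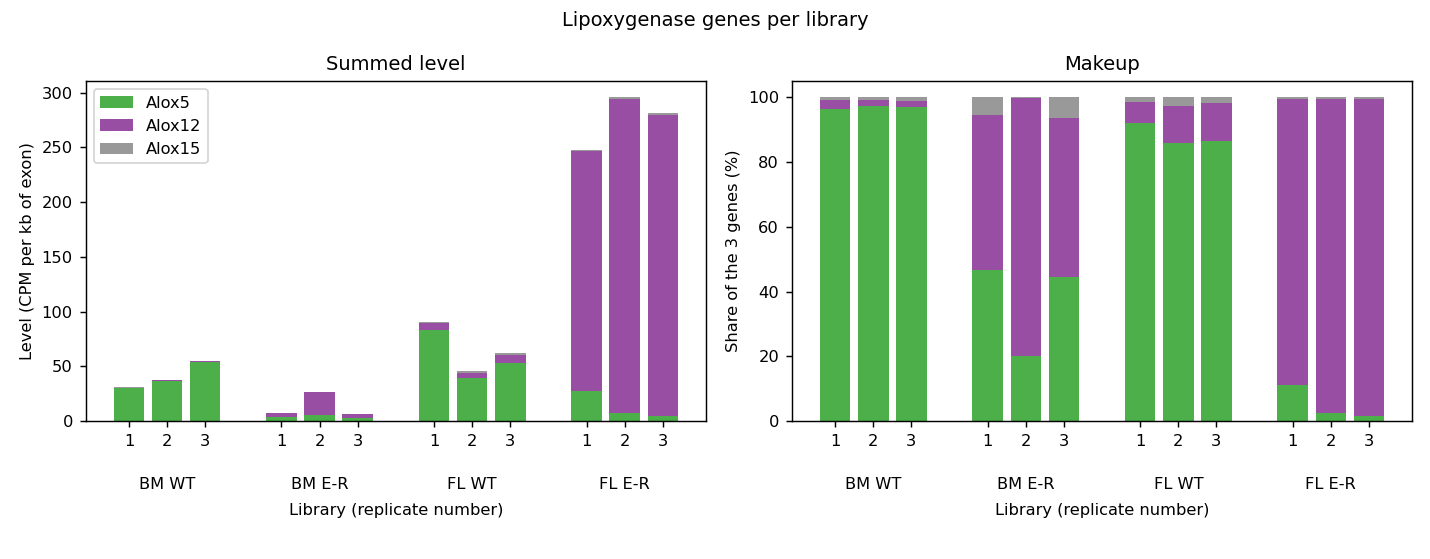
Left, summed level of Alox5, Alox12 and Alox15 in CPM per kilobase of exon in each of the 12 libraries (bars, replicates 1 to 3 of WT and ETV6-RUNX1 (E-R) bone marrow (BM) and fetal liver (FL)); right, the share of each gene in percent. Alox5 holds at least 85.8% in every WT library, and Alox12 holds at least 88.3% in every ETV6-RUNX1 fetal liver library.

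Ptgs1 (ENSMUSG00000047250, chromosome 2, 36230426 to 36252272) was the abundant cyclooxygenase. It was 266, 282 and 318 CPM in WT and 179, 194 and 182 CPM in ETV6-RUNX1 bone marrow, and 428, 301 and 339 CPM in WT and 412, 442 and 360 CPM in ETV6-RUNX1 fetal liver. The bone marrow groups did not overlap and the fetal liver groups did. Ptgs1 fell with the fusion in bone marrow by 0.64 ± 0.14 (limma adjusted p 0.00727, kept under all 21 alternatives), and the fetal liver difference was 0.20 ± 0.14 (limma adjusted p 0.28). The effects differed by 0.83 ± 0.20 (limma adjusted p 0.0187), a call lost under 4 of 20 alternatives: without the filter (adjusted p 0.0507), without WT fetal liver replicate 2 (0.056) or 3 (0.0516) and without ETV6-RUNX1 fetal liver replicate 2 (0.0508). With the fusion Ptgs1 was 2.19-fold higher in fetal liver (1.12 ± 0.14, limma adjusted p 4.34e-05), and in WT the source difference was 0.29 ± 0.14 (limma adjusted p 0.215). Gm43621 overlaps 148 exon bases of Ptgs1 on the opposite strand.

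Ptgs2 (ENSMUSG00000032487, chromosome 1, 150100031 to 150108227), whose promoter window above holds 2 of the RUNX core matches, was near the lower limit of the filter in WT. In bone marrow it was 0.495, 0.779 and 1.12 CPM in WT (26 to 45 reads) and 2.46, 5.87 and 4.796 CPM in ETV6-RUNX1. In fetal liver it was 0.973, 1.04 and 1.504 CPM in WT and 22.9, 8.87 and 20.9 CPM in ETV6-RUNX1. The ETV6-RUNX1 libraries lay above the WT libraries in both sources without overlap, and the WT groups of the sources overlapped. Ptgs2 rose 14.99-fold in fetal liver (log2 fold change 3.002 ± 0.32, limma adjusted p 7.23e-06) and 5.48-fold in bone marrow (1.54 ± 0.32, limma adjusted p 0.00589), and both calls held under all 21 alternatives. The folds are of mean CPM, and the 1 added to the CPM makes the log2 values of so low a gene smaller. Over the alternatives the log2 values ran from 2.77 to 3.82 in fetal liver and from 1.29 to 2.35 in bone marrow. The difference between these rises was 1.47 ± 0.46 (limma adjusted p 0.0601), which passed the threshold under 5 of 20 alternatives (adjusted p 0.00916 to 0.191 over all 20). Per kilobase, Ptgs2 was 0.23% of the cyclooxygenase level in WT and 1.95% in ETV6-RUNX1 bone marrow, and 0.286% in WT and 3.62% in ETV6-RUNX1 fetal liver. Both fusion comparisons of that share gave an exact two-sided permutation p of 0.1, the smallest that 3 libraries against 3 allow.

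Hpgds (ENSMUSG00000029919, chromosome 6, 65117293 to 65144908), the hematopoietic prostaglandin D synthase, ranged from 1.18 to 6.12 CPM. It was 6.12, 5.55 and 5.35 CPM in WT and 4.08, 2.41 and 3.09 CPM in ETV6-RUNX1 fetal liver, with no overlap. It fell there by 0.69 ± 0.26 (limma adjusted p 0.0414), a call lost under 9 of 20 alternatives, among them a pseudocount of 0.1 (adjusted p 0.0648), no filter on low values (0.129) and 7 of the fits that left out 1 library (up to 0.146, without ETV6-RUNX1 fetal liver replicate 2). The bone marrow difference was -0.59 ± 0.26 (limma adjusted p 0.116).

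Hpgd (ENSMUSG00000031613, chromosome 8, 56294585 to 56321043), the 15-hydroxyprostaglandin dehydrogenase, was in bone marrow 5.07, 5.38 and 9.34 CPM in WT and 2.22, 12.1 and 0.124 CPM in ETV6-RUNX1. In fetal liver it was 57.3, 48.2 and 63.9 CPM in WT and 264, 362 and 302 CPM in ETV6-RUNX1. The 6 fetal liver libraries lay above the 6 bone marrow libraries, and the spread within ETV6-RUNX1 bone marrow reached from 4 reads in replicate 3 to 393 reads in replicate 2. The difference between sources, for which Hpgd was chosen, was 8.56-fold in WT (log2 difference 2.95 ± 0.58) and 64.1-fold with the fusion (6.41 ± 0.58). The latter was 7.34 without replicate 2 and 5.57 without replicate 3 of ETV6-RUNX1 bone marrow. The fusion comparisons were not used by the choice, but they share libraries with the source differences that were. Their tests are therefore not independent of the choice. Hpgd rose 5.48-fold with the fusion in fetal liver (2.43 ± 0.58, limma adjusted p 0.00405, kept under all 21 alternatives, adjusted p up to 0.0452). In bone marrow the difference was -1.02 ± 0.58 (limma adjusted p 0.23). It was -1.95 (limma adjusted p 0.006) without ETV6-RUNX1 replicate 2 and -0.18 without ETV6-RUNX1 replicate 3. The effects of the fusion differed between sources by 3.46 ± 0.82, given without a test because this contrast is built from the source differences, and by 4.39 or 2.61 without replicate 2 or 3 of ETV6-RUNX1 bone marrow.

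**Figure D3:**
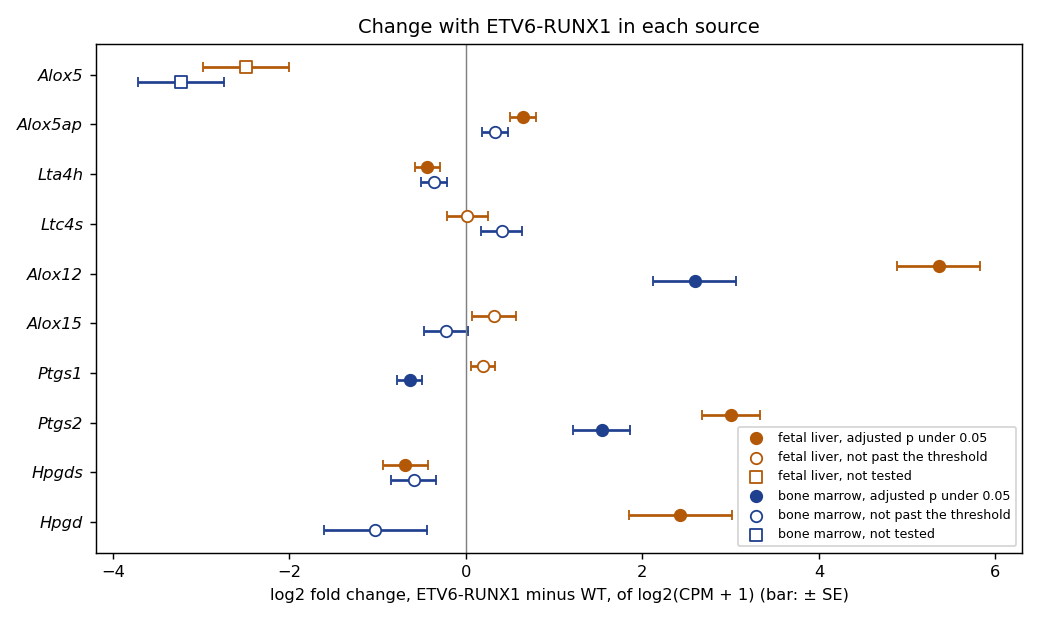
Log2 fold change of each enzyme gene with ETV6-RUNX1 against WT on the log2(CPM + 1) scale (horizontal axis, bars ± SE) in fetal liver and bone marrow; filled points passed an adjusted p of 0.05 in limma, open circles did not, and open squares (Alox5) were not tested. Alox12 lies at 5.36 and 2.59, Ptgs2 at 3.002 and 1.54, and Hpgd at 2.43 in fetal liver and -1.02 in bone marrow.

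Counted over the members, 6 of the 9 tested for the fusion in fetal liver were called, 4 higher (Alox5ap, Alox12, Ptgs2 and Hpgd) and 2 lower (Lta4h and Hpgds), where limma called 43.1% of all genes (24.8% as higher and 18.3% as lower). Hpgd is counted here although the same fetal liver libraries entered the source difference that chose it. In bone marrow 3 of 9 were called, Alox12 and Ptgs2 higher and Ptgs1 lower, beside 19.4% of all genes (14.4% higher and 4.93% lower), and median-of-ratios scaling gave 2 higher and 2 lower, Lta4h being the added call. Without ETV6-RUNX1 bone marrow replicate 2 there were 5 calls, with Hpgds and Hpgd added as lower. For the difference between the effects, 2 of the 8 tested were called (Alox12 and Ptgs1), both higher in fetal liver, beside 9.19% of all genes (5.56% higher and 3.62% lower). In WT, 2 of 9 differed between sources (Alox12 and Alox15, both higher in fetal liver), beside 11.1% of all genes (3.38% higher and 7.77% lower). With the fusion 6 of 9 did, beside 28.6% (10.4% higher and 18.2% lower): Alox12, Alox15, Ptgs1 and Ptgs2 were higher in fetal liver, and Lta4h (by -0.49 ± 0.14, limma adjusted p 0.0196, lost under 7 of 21 alternatives) and Ltc4s lower. Under median-of-ratios scaling this last split was 5 higher, with Alox5 added, and 1 lower, without Lta4h. Ptgs2 was 4.01-fold higher in fetal liver with the fusion (1.74 ± 0.32, limma adjusted p 0.00124).

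The median log2 fold change of the 10 members was 0.26 in fetal liver and -0.30 in bone marrow, against 0.08 and 0.13 for all genes tested. Median-of-ratios scaling moved the median of all genes in bone marrow from 0.13 to 0.00, and quantile normalization moved that of fetal liver from 0.08 to -0.10. The directions of the called members did not turn under these scalings.

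Several of these enzymes are abundant in particular blood cells, so the markers of such cells were read beside them. The summed level of 7 megakaryocyte markers (among them Pf4, Itga2b, Gp9 and Vwf) was 1383, 1362 and 1814 CPM in WT and 649, 2086 and 466 CPM in ETV6-RUNX1 bone marrow, and 4009, 3064 and 4523 CPM in WT and 7466, 7823 and 7125 CPM in ETV6-RUNX1 fetal liver. Pf4 had the highest mean of the 7 in every group, 771 and 530 CPM in WT and ETV6-RUNX1 bone marrow and 2472 and 4816 CPM in fetal liver. Gp9 was lower with the fusion, from 118 to 20.5 CPM in bone marrow and from 387 to 213 CPM in fetal liver. The library of ETV6-RUNX1 bone marrow with the high sum, replicate 2, is the one with the high Alox12 and Hpgd. Of the 7 markers, 4 were called higher and 1 lower with the fusion in fetal liver, and none higher and 1 lower in bone marrow, where 43.1% and 19.4% of all genes were called. Alox12 departed from this order in bone marrow: replicates 1 and 3 of ETV6-RUNX1 had the lowest marker sums of all libraries and 15.1 and 14.05 CPM of Alox12, above the 2.96 to 4.48 CPM of WT. The part of these markers in the results was not tested.

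**Figure D4:**
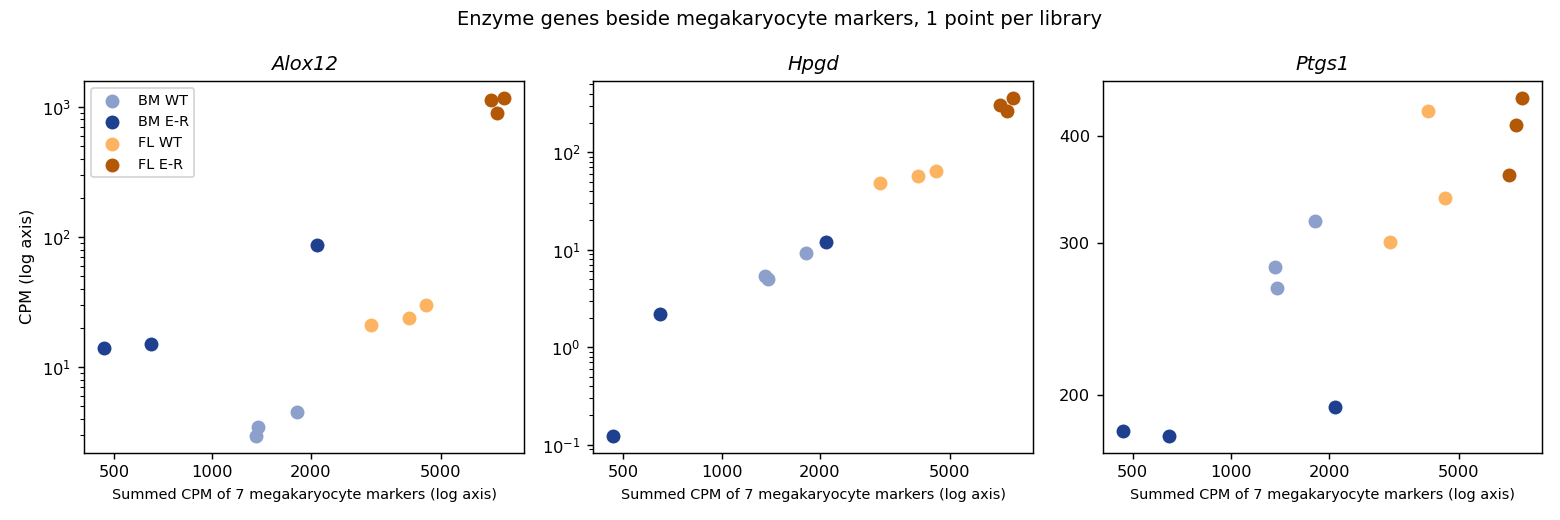
Level of Alox12, Hpgd and Ptgs1 in CPM (vertical log axes) against the summed CPM of 7 megakaryocyte markers (horizontal log axis), 1 point for each of the 12 libraries of WT and ETV6-RUNX1 (E-R) bone marrow (BM) and fetal liver (FL). Hpgd is lowest where the marker sum is lowest, 466 CPM, and highest where it is highest, 7823 CPM, while the ETV6-RUNX1 bone marrow libraries lie above the WT bone marrow libraries for Alox12 and below them for Ptgs1.

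Among markers of cells known for leukotriene and prostaglandin D2 synthesis, those of mast cells, basophils and eosinophils were low. Those of granulocytes and monocytes had higher sums, made up mostly of Lyz2 and Prtn3. The 10 mast cell and basophil markers summed to 5.72 to 13.8 CPM per library, with Prss34 and Mcpt4 at 0 in all groups, and 5 eosinophil markers to at most 1.402 CPM. In fetal liver the mast cell and basophil markers went both ways, Hdc from 0.288 CPM in WT to 6.34 CPM in ETV6-RUNX1 and Cpa3 from 7.13 to 3.65 CPM. In bone marrow Fcer1a averaged 2.95 CPM in WT and 0.198 CPM in ETV6-RUNX1. Hdc went there from 0.953 to 1.58 CPM and Cpa3 from 7.14 to 7.84 CPM. Of 3 mast cell and basophil markers tested in bone marrow, 1 was called lower and none higher, beside 19.4% of all genes called. The part of these markers in the fall of Alox5 was not tested. The 10 granulocyte-monocyte markers summed to 376 to 632 CPM in WT and 341 to 514 CPM in ETV6-RUNX1 bone marrow, which overlap, and to 419 to 529 CPM in WT and 656 to 853 CPM in ETV6-RUNX1 fetal liver. Lyz2 and Prtn3 had the highest means in every group, 263 and 191 CPM in WT and 311 and 113 CPM in ETV6-RUNX1 bone marrow. S100a8 averaged 20.5 and 0.143 CPM there, Mpo 3.42 and 0.395 CPM, and Csf1r 0.764 and 1.27 CPM. The S100a8 of WT was 49.4, 12.0 and 0.125 CPM in replicates 1 to 3. In bone marrow 8 of the 10 averaged at least 1 CPM in WT and 3 with the fusion. Of these 8, Elane (17.3, 0.0390 and 0.224 CPM), Fcnb (13.1, 0.390 and 0) and Ly6c2 (4.76, 0.175 and 0.0996) reached 1 CPM only in replicate 1 of WT bone marrow. Of 4 tested there, 1 was called lower and none higher, beside 19.4% of all genes called. The members of that list went both ways in fetal liver: Lyz2 averaged 233 CPM in WT and 686 CPM in ETV6-RUNX1, whereas Mpo went from 67.4 to 10.1 CPM and Prtn3 from 188 to 30.4 CPM, and of 4 tested 2 were called higher and 2 lower. In fetal liver 3 of the 10 averaged at least 1 CPM in WT and 4 with the fusion.

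Several other lists had higher sums with the fusion in fetal liver without overlap. The 9 HSC markers summed to 1568 to 1912 CPM in WT and 3884 to 4011 CPM in ETV6-RUNX1 fetal liver, and to 1665 to 2488 and 2781 to 3057 CPM in bone marrow. The 6 erythroid markers summed to 59.6 to 79.7 CPM in WT and 164 to 203 CPM in ETV6-RUNX1 fetal liver (24.3 to 51.0 and 45.3 to 52.2 in bone marrow). Hbb-bs made up most of that sum, and averaged 68.3 CPM in WT and 143 CPM in ETV6-RUNX1 fetal liver. Klf1 averaged 0.654 and 0.175 CPM there. Rhag went from 2.71 to 19.5 CPM in fetal liver and from 2.21 to 0.591 CPM in bone marrow. The 7 endothelial and stromal markers summed to 75.2 to 107 CPM in WT and 146 to 176 CPM in ETV6-RUNX1 fetal liver (65.6 to 99.0 and 90.2 to 97.2 in bone marrow). Most of the endothelial and stromal sum was Pecam1, which averaged 69.7 CPM in WT and 141 CPM in ETV6-RUNX1 fetal liver. Pdgfrb went there from 5.38 to 0.229 CPM, and Col1a1, Col1a2 and Lepr averaged under 1 CPM in both. Of 5 of these markers tested in fetal liver, 2 were called higher and 1 lower, beside 43.1% of all genes called. The 8 macrophage markers summed to 40.6 to 48.7 CPM in WT and 102 to 113 CPM in ETV6-RUNX1 fetal liver, and to 35.5 to 55.8 and 83.6 to 105 CPM in bone marrow. Most of the macrophage sum was Cd68, and C1qa, C1qb, C1qc and Marco averaged under 1 CPM in every group. The part of these lists in the changes of Alox5, Ptgs2 and the other members was not tested.

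Of 59 further genes of the eicosanoid route, 37 were expressed enough to be tested. With the fusion in fetal liver 10 were called higher and 9 lower, where limma called 24.8% and 18.3% of all genes. In bone marrow 9 were called higher and 3 lower (5 and 3 with median-of-ratios scaling, 4 and 3 with quantile normalization), beside 14.4% and 4.93% of all genes. The median log2 fold change of the 37 was -0.13 in fetal liver and 0.05 in bone marrow, against 0.08 and 0.13 for all genes. Ptgds, Ptger2, Slco2a1 and Ephx2 are 4 of the 37 that met the filter through a single group, the one in which they were highest, so that these counts are a description. Among the 7 genes for arachidonate release, 3 rose and 1 fell in fetal liver and 2 rose in bone marrow, where 43.1% and 19.4% of all genes were called. Pla2g4c was counted in both sources, but its call was lost under 15 of 20 alternatives in fetal liver and 18 of 20 in bone marrow. The call of Plaa, the other bone marrow rise, was lost under 3 of 21. Pla2g12a, a secreted phospholipase A2, fell in fetal liver from 10.8 to 4.79 CPM (-1.04 ± 0.27, limma adjusted p 0.00681). The cytosolic phospholipase A2 Pla2g4a, named here after its values were seen, went from 232 to 401 CPM in fetal liver (0.79, limma adjusted p 0.00143) and was 272 in WT and 262 CPM in ETV6-RUNX1 bone marrow. Of the other lipoxygenases Alox8, Alox12b, Alox12e and Aloxe3, none reached the filter.

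Among 8 terminal prostanoid synthases 1 rose and 4 fell in fetal liver, and 1 rose and 1 fell in bone marrow, beside the same 43.1% and 19.4%. The bone marrow rise and 1 of the fetal liver falls were Ptgds. That gene met the filter through ETV6-RUNX1 bone marrow alone, so these counts are a description. Its calls were lost under 16 of 20 alternatives in bone marrow and 9 of 20 in fetal liver. Ptges3, the cytosolic prostaglandin E synthase also known as the cochaperone p23, fell in fetal liver from 1090 to 558 CPM (-0.95 ± 0.14, limma adjusted p 0.000142), and Akr1b3, an aldose reductase, fell in both sources: from 307 to 209 CPM in fetal liver (-0.56 ± 0.12, limma adjusted p 0.00229) and from 319 to 227 CPM in bone marrow (-0.49 ± 0.12, limma adjusted p 0.0143, lost under 3 of 21 alternatives). The gene that rose in fetal liver was the thromboxane synthase Tbxas1, also named after its values were seen, from 224 to 412 CPM (0.89, limma adjusted p 0.000245), while its bone marrow means were 245 and 251 CPM.

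The receptors were led by Cysltr2, a receptor for cysteinyl leukotrienes. It was 0.713, 1.10 and 1.396 CPM in WT and 7.06, 11.7 and 8.58 CPM in ETV6-RUNX1 fetal liver, and 6.25, 7.97 and 8.57 CPM in WT and 21.0, 19.5 and 10.4 CPM in ETV6-RUNX1 bone marrow. The ETV6-RUNX1 libraries were above the WT libraries in both sources. Cysltr2 rose by 2.28 ± 0.26 in fetal liver (limma adjusted p 1.3e-05, kept under all 21 alternatives) and by 1.01 ± 0.26 in bone marrow (limma adjusted p 0.0167, lost under 5 of 21, adjusted p up to 0.0695 without ETV6-RUNX1 bone marrow replicate 2). Of 6 prostanoid receptors tested, Ptger4, a prostaglandin E2 receptor, rose in bone marrow from 8.80 to 21.3 CPM (1.16 ± 0.23, limma adjusted p 0.0043) and in fetal liver from 3.89 to 9.19 CPM (1.03 ± 0.23, limma adjusted p 0.00264). Ptger1, another, rose in bone marrow from 3.09 to 7.08 CPM (0.98 ± 0.20, limma adjusted p 0.0054) and was 5.52 CPM in WT and 8.32 CPM in ETV6-RUNX1 fetal liver, where it did not pass the test. Ptger2, also a prostaglandin E2 receptor and one of those that met the filter through 1 group, averaged 3.81 CPM in WT and 0.762 CPM in ETV6-RUNX1 fetal liver.

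Among genes for transport and breakdown, Ephx2, the soluble epoxide hydrolase, averaged 0.579 CPM in WT and 6.24 CPM in ETV6-RUNX1 fetal liver. It entered the fit only through that last group, no library of any other reaching 1 CPM, and is given as a description. The ABC transporter gene Abcc4, whose product exports prostaglandins, fell there from 37.6 to 16.6 CPM (-1.15 ± 0.33, limma adjusted p 0.0128, lost under 3 of 21 alternatives). Mgst2, a microsomal glutathione S-transferase that can make leukotriene C4, rose from 3.70 to 13.1 CPM in fetal liver (1.59 ± 0.18, limma adjusted p 1.18e-05) and was called higher in bone marrow too, there lost under 5 of 21 alternatives. Ptgr1, the prostaglandin reductase, fell in bone marrow (-0.67 ± 0.21, limma adjusted p 0.0381, lost under 8 of 21 alternatives) and in fetal liver (-0.72 ± 0.21, limma adjusted p 0.0134, lost under 2 of 21). The carboxylesterase Ces2g fell in bone marrow (-1.04 ± 0.30, limma adjusted p 0.0249, lost under 5 of 21).

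Between sources, 3 of the 37 genes were higher and 5 lower in WT fetal liver than in WT bone marrow, beside 3.38% and 7.77% of all genes. With the fusion 7 were higher and 9 lower (8 and 6 with median-of-ratios scaling), beside 10.4% and 18.2% of all genes. The prostacyclin receptor Ptgir was higher in fetal liver in WT (1.71 ± 0.34, limma adjusted p 0.00454) and with the fusion (1.63 ± 0.34, limma adjusted p 0.00283), as was Mgst3 in WT (1.17 ± 0.17, limma adjusted p 0.000458). Ces2g was lower in fetal liver in both genotypes (-2.70 ± 0.30, limma adjusted p 3.96e-05, and -2.18 ± 0.30, adjusted p 8.45e-05). Cysltr2 was lower in WT fetal liver (-2.06 ± 0.26, limma adjusted p 0.000153), as was Ggt5, which trims leukotriene C4 (-1.37 ± 0.32, limma adjusted p 0.0114, lost under 3 of 20 alternatives). With the fusion the lysosomal phospholipase Pla2g15 (0.82 ± 0.18, limma adjusted p 0.00377) was higher in fetal liver, and Ptger4 (-1.14 ± 0.23, limma adjusted p 0.00224) and the carbonyl reductase Cbr1 (-0.78 ± 0.17, limma adjusted p 0.00393) were lower.

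**Figure D5:**
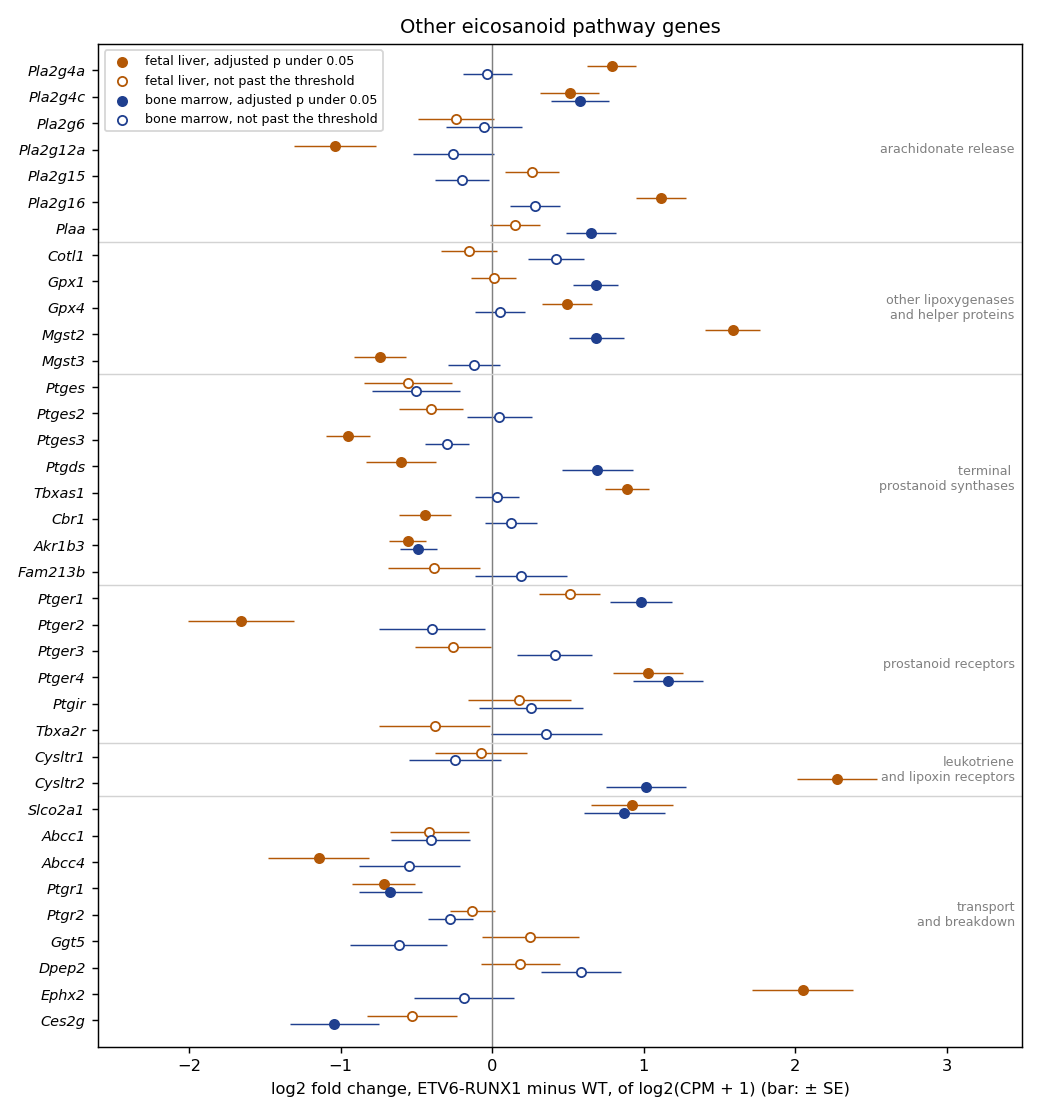
Log2 fold change with ETV6-RUNX1 against WT on the log2(CPM + 1) scale (horizontal axis, bars ± SE) of the 37 tested genes of the eicosanoid route in fetal liver and bone marrow, in the order of their role; filled points passed an adjusted p of 0.05 in limma. Cysltr2 (2.28), Ephx2 (2.05) and Mgst2 (1.59) lie farthest to the right in fetal liver, Ephx2 having met the filter through that group's ETV6-RUNX1 libraries alone.

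The genes whose profile over the 12 libraries lay nearest to those of Alox5 and Hpgd were found by the root mean square difference of log2(CPM + 1), centred on each gene's mean, among 10494 genes. Nearest to Alox5 were Cst7 (0.55), Smim5 (0.70), Smim6 (0.79), Il1bos (0.84) and Gcsam (0.87). Cst7, the nearest, averaged 6.82 CPM in WT and 0.691 CPM in ETV6-RUNX1 bone marrow, and 13.5 and 2.22 CPM in fetal liver. Nearest to Hpgd were Clec1b (0.50), Ly6g6f (0.58), Mpig6b (0.66), Dhrs3 (0.69) and Cd226 (0.70). Clec1b averaged 4.42 CPM in WT and 7.52 CPM in ETV6-RUNX1 bone marrow, and 78.8 and 291 CPM in fetal liver.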

How the data were processed

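Total RNA was made into libraries with a stranded low-input kit and sequenced as read pairs, per the labels' protocols. The authors deposited 1 table of CPM, a count scaled by library total, per gene and library. The submitters' processing notes name bcl2fastq, STAR 2.5.1a, Subread, featureCounts 1.4.6-p5, Salmon 0.8.2, edgeR, limma and GRCm38, with no role or order; the annotation release and the use of strand are not given in the sources used here. Repeated rows (276) were dropped. Within 0.01 of a read, 100% of values were whole multiples of 1 read, which gave the library totals.

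Log2 values were taken after adding 1 to the CPM. The 14271 genes that reached 1 CPM in 3 or more libraries were fitted with limma 3.58.1 (R 4.3.3; trend, 4 group coefficients, 8 residual degrees of freedom), two-sided, Benjamini-Hochberg threshold 0.05, for 5 comparisons. A call is an adjusted p under 0.05. The fit was tested on simulated data. The members and lists were chosen with earlier results of these data known. All members are named. Of the related genes, the 3 largest called rises and falls per comparison with a group mean of at least 5 CPM and no overlap are named (overlap was allowed for the difference between effects), and the 5 genes nearest in profile to Alox5 and Hpgd. Positions and exon lengths are from GENCODE M21 (99.4% of gene identifiers found), promoters from RefSeq. Alternatives were a pseudocount of 0.1, no filter (29278 genes), a mean of at least 5 CPM, quantile and median-of-ratios normalization, a replicate block, edgeR 4.0.16 with TMM and DESeq2 1.42.0 on recovered reads, fits of the 6 libraries in a comparison, and leaving out each library.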

Additional observations from a re-analysis of the deposited data

Results flagged for a closer look

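For 9 genes the effect of the fusion differed between fetal liver and bone marrow in limma's test of the difference itself (fetal liver minus bone marrow). They were 2 of the 8 members tested and 7 of the 37 related genes tested, where 9.19% of all genes were called. Of those 7, Ephx2 and Ptgds met the filter through a single group, the one in which they were highest, so the count is a description. Alox12 rose more in fetal liver, by 2.76 ± 0.67 (limma adjusted p 0.0203). Ptgs1 fell in bone marrow and had a difference of 0.83 ± 0.20 between the effects (limma adjusted p 0.0187). The related genes that met the rule for naming were Ephx2, Cysltr2 and Mgst2. Ephx2 had a difference of 2.23 ± 0.47, given as a description since only the ETV6-RUNX1 fetal liver libraries brought it past the filter on low values: its levels were 0.0811, 0 and 0.897 CPM in ETV6-RUNX1 bone marrow against 3.30, 11.04 and 4.38 CPM in ETV6-RUNX1 fetal liver. Cysltr2 rose more in fetal liver by 1.26 ± 0.37 (limma adjusted p 0.0487) and Mgst2 by 0.90 ± 0.26 (limma adjusted p 0.0421), calls lost under 11 and 12 of 20 alternatives (adjusted p up to 0.134 and 0.116). With the replicate block these 2 were at 0.0646 and 0.0637. The other 4, named here after their values were seen, were Tbxas1 (0.86), Pla2g4a (0.82), Pla2g16 (0.83) and Ptgds (-1.30), the last also past the filter through 1 group alone.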

How the results depend on the processing

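Of 44 member results with a test, 26 kept their call and direction under every alternative run. Changes of sign were as follows. For Ltc4s with the fusion in fetal liver the values were -0.032 (median-of-ratios), -0.17 (quantile), -0.078 (edgeR) and -0.060 (DESeq2), and -0.097 to 0.082 with 1 library left out. Leaving out 1 library gave -0.39 to 0.065 for Alox15 in bone marrow. In the difference between effects it gave -0.0050 (replicate 1 of ETV6-RUNX1 fetal liver left out) to 1.29 for Alox5, whose main value was 0.73, -0.23 to 0.050 for Lta4h, which was 0.0044 with median-of-ratios scaling, and -0.39 to 0.19 for Hpgds. The cause was not tested.

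Member calls for the difference between effects were 2 in limma's main setting, 0 without the filter and 1 each with edgeR and DESeq2; in WT between sources they were 2, and 1 with a pseudocount of 0.1, without the filter, with a mean of at least 5 CPM and with edgeR. Calls among the related genes, 37 of them tested in the main setting, went in bone marrow from 12 to 7 (quantile) and 5 (only the 6 libraries compared), in the difference between effects from 7 to 0 (no filter) and 3 (replicate block), and in WT between sources from 8 to 5 (no filter, and a mean of at least 5 CPM). The fit without the filter tests more genes, among them 57 related ones. That with a mean of at least 5 CPM tests fewer, 26 related genes and, in WT between sources, 6 members in place of 9. The fit of 6 libraries has fewer samples, and other causes were not tested.

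Leaving out each library gave 4 to 6 member calls in fetal liver, 3 to 5 in bone marrow, 0 to 3 for the difference between effects, and 1 to 3 and 4 to 6 between sources in WT and with the fusion. Related genes gave 15 to 19, 4 to 11, 1 to 11, 5 to 10 and 13 to 17 calls. The 0 for members in the difference between effects came without WT fetal liver replicate 2.

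Whether replicate numbers pair the samples is not known. Of 18 pairs of libraries with the same number in different groups, 7 correlated above 0.1 (-0.44 to 0.39), and in 4 the best match was the library of the same number. With the replicate block the member calls were 6, 3, 2, 2 and 6, as without it. The floor of 3 reads limits what can be said of Alox15 and Hpgd in bone marrow, where single libraries held 4 reads.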
